A study of Mus musculus with 20 samples.

Results

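Neurexins, neuroligins and LRRTMs are the proteins that hold the 2 sides of a synapse together, and 9 of their genes were measured here in nuclei of the mouse hippocampus: Nrxn2, Nrxn3, Nlgn1, Nlgn2, Nlgn3, Lrrtm1, Lrrtm2, Lrrtm3 and Lrrtm4. They were taken by name and are 9 of the 32285 genes in the count files. The files held 20 libraries, 1 per mouse, with 160777 nuclei and 9243992 to 25394891 unique molecular identifiers (UMIs, counts of single RNA molecules) per mouse. All mice were males of 4.5 to 5.5 months, either wild-type (WT) or carrying the APP/PS1 (APPSwe/PS1ΔE9) transgenes, a model of familial Alzheimer's disease. By their labels, 6 WT and 3 APP/PS1 mice were killed awake (Wake), and 3 WT and 4 APP/PS1 mice after 3 h of isoflurane (5% reduced to 1.5%). Another 2 WT and 2 APP/PS1 mice were killed after 3 h of ketamine (150 mg/kg) with xylazine (12 mg/kg). The text of the series gives other group sizes than the labels, and the labels were used. The question the design poses is whether anesthesia changes these genes, and whether it does so alike in both genotypes.

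Neurexins sit on the presynaptic membrane and reach across the cleft. Neuroligins and LRRTMs are their postsynaptic ligands. Neuroligin 1 is found mainly at excitatory synapses and neuroligin 2 mainly at inhibitory ones, neuroligin 3 occurs at both, and the LRRTMs are organisers of excitatory synapses. In the hippocampus LRRTM4 is known for its part at synapses of dentate granule cells, and LRRTM1 and LRRTM2 for theirs at CA1 synapses.

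Nuclei were assigned to cell classes from markers that hold none of the 9 genes. Of all nuclei 129170 (80.3%) received a class, and 26836 (16.7%) were set aside as mixtures of 2 classes. The 10 classes described here hold 124111 nuclei: 39855 granule-like, 17119 CA1-like, 750 CA2-like, 7159 CA3-like, 9151 subicular-like (subicular and cortical excitatory markers), 6807 inhibitory-like, 20337 astrocyte-like, 15999 oligodendrocyte-like, 4154 OPC-like (oligodendrocyte precursor) and 2780 microglia-like. Each had at least 2 of its own markers and 0 markers of another class among its 10 leading genes. The gate was seeded with these same markers, so this is no independent check of the names. The names rest on this gate and not on deposited annotations. Free RNA in the droplets puts counts into nuclei that do not make a transcript, so the microglia-like level is given as a reference for what may be background. Of 157472 distinct barcodes, 3251 occurred in more than 1 library. The mouse numbers fall into 5 runs of consecutive numbers, which the labels do not call batches. The methods of the study describe processing in batches of 4, without naming the mice of each. Mice 1 to 4 stood apart, with 0.939% to 1.78% of UMIs from mitochondrial genes against 0.0353% to 0.336% in the other 16. Prnp, whose promoter drives the transgenes of these mice, did not separate the genotype labels. In granule-like nuclei the mice labelled APP/PS1 ranged from 55.1 to 448 CPM (counts scaled to a common library total) and those labelled WT from 31.6 to 184, with mice 11 and 17 low for APP/PS1 and mouse 14 high for WT.

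Lrrtm3 is the member whose level differed most often between states, so its promoter is shown, from 250 bases before to 50 bases after the RefSeq start (GRCm38.p6, chr10:64090206-64090505, minus strand). Capitals mark the 50 transcribed bases.
Lrrtm3 promoter: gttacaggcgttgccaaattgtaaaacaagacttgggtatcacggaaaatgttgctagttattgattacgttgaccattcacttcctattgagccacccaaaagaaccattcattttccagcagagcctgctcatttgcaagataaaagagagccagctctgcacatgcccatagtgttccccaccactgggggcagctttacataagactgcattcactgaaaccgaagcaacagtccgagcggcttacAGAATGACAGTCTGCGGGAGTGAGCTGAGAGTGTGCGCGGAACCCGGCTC
Its GC content was 48.7%, against a median of 52.7% over all RefSeq promoters. Motifs of activity-regulated promoters were searched on both strands, and none was in this window: the CRE TGACGTCA (in 1.79% of 32851 promoters), its core TGACG (20.8%, which includes every CRE), the AP-1 site TGANTCA (7.81%), the CArG box (1.63%) and the MEF2 site (0.557%). Of the 10 promoters available for 6 of the 9 genes, TGACG was found only for Nlgn2 and TGANTCA only for Nrxn3.

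The 9 genes lie on 8 chromosomes (GRCm38). Nrxn3 on chr12:88722876-90334935 and Nlgn1 on chr3:25426215-26332460 are very long genes, of 1612.1 and 906.2 kb, and Lrrtm4 on chr6:80018877-80810143 spans 791.3 kb. Nrxn2 lies at chr19:6418731-6544169, Nlgn2 at chr11:69823122-69837784 and Nlgn3 at chrX:101299168-101325963. The other LRRTM genes are nested within α-catenin genes, each on the opposite strand of its host. Lrrtm1 (chr6:77242689-77257791, plus strand) lies within Ctnna2 and overlaps none of its exons. Lrrtm2 (chr18:35209003-35215024, minus strand) lies within Ctnna1 and Lrrtm3 (chr10:63928472-64090277, minus strand) within Ctnna3, and both overlap an exon of some transcript of the host. Whether the counting used strand is not given in the sources used here.

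Each gene had its own distribution over the classes. Levels are CPM of the summed UMIs of a class, as mean ± SD over mice, and are compared between classes for 1 gene at a time. Neighbouring classes in each gene's order were compared within mice by a two-sided sign-flip permutation test on log2(CPM + 1), with Benjamini-Hochberg adjustment over all 81 neighbouring pairs. Of these pairs 44 differed.

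Among the neurexins, Nrxn3 was high in neurons and very uneven among them. Inhibitory-like nuclei had 10000 ± 1502 CPM (n = 20) and CA2-like nuclei 9557 ± 744 (n = 18), which did not differ beyond their spread (adjusted permutation p = 0.212). CA3-like nuclei followed with 7746 ± 882, CA1-like with 5234 ± 824, subicular-like with 3976 ± 603 and OPC-like with 2667 ± 332. Granule-like nuclei had only 1215 ± 233 CPM, and each of these steps differed (highest adjusted permutation p = 0.000101). Astrocyte-like (131 ± 54.8), microglia-like (99.1 ± 38.8) and oligodendrocyte-like nuclei (98.4 ± 69.1) were all near the reference, astrocyte-like nuclei slightly above it (adjusted permutation p = 0.0368). Nrxn2 was highest outside neurons, in OPC-like nuclei at 731 ± 139 CPM, then 298 ± 52.1 in astrocyte-like nuclei, lower than in OPC-like nuclei in 20 of 20 mice. Inhibitory-like (159 ± 20.6) and oligodendrocyte-like nuclei (166 ± 54.1) came next, with no difference between them past the threshold (higher in inhibitory-like nuclei in 11 of 20 mice, adjusted permutation p = 0.993), and inhibitory-like nuclei were below astrocyte-like nuclei in 20 of 20 mice. CA1-like (74.2 ± 15.6) and granule-like nuclei (71.6 ± 11.4) did not differ (adjusted permutation p = 0.621), and CA3-like nuclei were lowest among neurons at 60.5 ± 11.6. Microglia-like nuclei had 19.2 ± 21.9 CPM.

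Among the neuroligins, Nlgn1 was present in every class above the microglia-like level of 118 ± 112 CPM. Its highest levels were 5025 ± 478 CPM in CA3-like, 4930 ± 521 in OPC-like and 4765 ± 461 in CA2-like nuclei, which did not differ between neighbours (adjusted permutation p = 0.268 and 0.102). CA1-like nuclei had 3735 ± 416, granule-like 2737 ± 341, inhibitory-like 1776 ± 298 and oligodendrocyte-like nuclei 639 ± 167. Nlgn2 was 24.9 to 34.0 CPM in the 6 neuronal classes, with no neighbouring neuronal pair differing, against a mean of 6.26 in microglia-like nuclei (lowest 0, highest 28.5, n = 19). It was 62.4 ± 14.2 in OPC-like nuclei, higher than inhibitory-like nuclei in 19 of 20 mice (adjusted permutation p = 5.06e-05). Nlgn3 was 117 ± 34.5 CPM in OPC-like nuclei, above the 50.6 ± 14.6 of astrocyte-like nuclei in 19 of 20 mice. Granule-like nuclei had the highest neuronal Nlgn3 level, 46.1 ± 5.74, against 25.8 ± 5.71 in CA3-like and 13.6 ± 19.0 in microglia-like nuclei.

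Among the LRRTM genes, Lrrtm4 and Lrrtm3 differed widely between neuronal classes. Lrrtm4 was 8724 ± 1052 CPM in granule-like nuclei, above the 4950 ± 735 of inhibitory-like nuclei in 20 of 20 mice. Subicular-like (4171 ± 907), OPC-like (3918 ± 610) and CA2-like nuclei (3392 ± 497) followed. CA3-like (1071 ± 182) and CA1-like nuclei (1038 ± 269) were lower and did not differ from each other (adjusted permutation p = 0.621), and microglia-like nuclei had 104 ± 110. Nrxn3 and Lrrtm4 thus stood at opposite levels in granule-like nuclei, where Lrrtm4 was highest of all classes and Nrxn3 lowest of the neuronal ones. Lrrtm3 was 682 ± 105 CPM in OPC-like, 626 ± 190 in oligodendrocyte-like and 536 ± 143 in subicular-like nuclei, which did not differ between neighbours (adjusted permutation p = 0.318 and 0.267). Inhibitory-like nuclei had 340 ± 83.1, granule-like 127 ± 46.5 and CA1-like nuclei 48.6 ± 13.8. CA2-like (18.8 ± 17.8) and CA3-like nuclei (12.0 ± 5.36) were close to the 9.42 ± 14.9 of microglia-like nuclei. Lrrtm1 ranged over the neuronal classes from 45.6 ± 11.3 in granule-like to 62.5 ± 24.0 in inhibitory-like nuclei, with 71.7 ± 28.2 in OPC-like and 7.53 ± 18.2 in microglia-like nuclei. Lrrtm2 was at 5.86 to 16.0 CPM in every class against 6.80 ± 10.2 in microglia-like nuclei, and no neighbouring pair differed. Classes farther apart in the order were not compared. The highest class of Lrrtm1, Lrrtm2 and Lrrtm3 was another one under TMM factors computed over all classes.

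**Figure D1:**
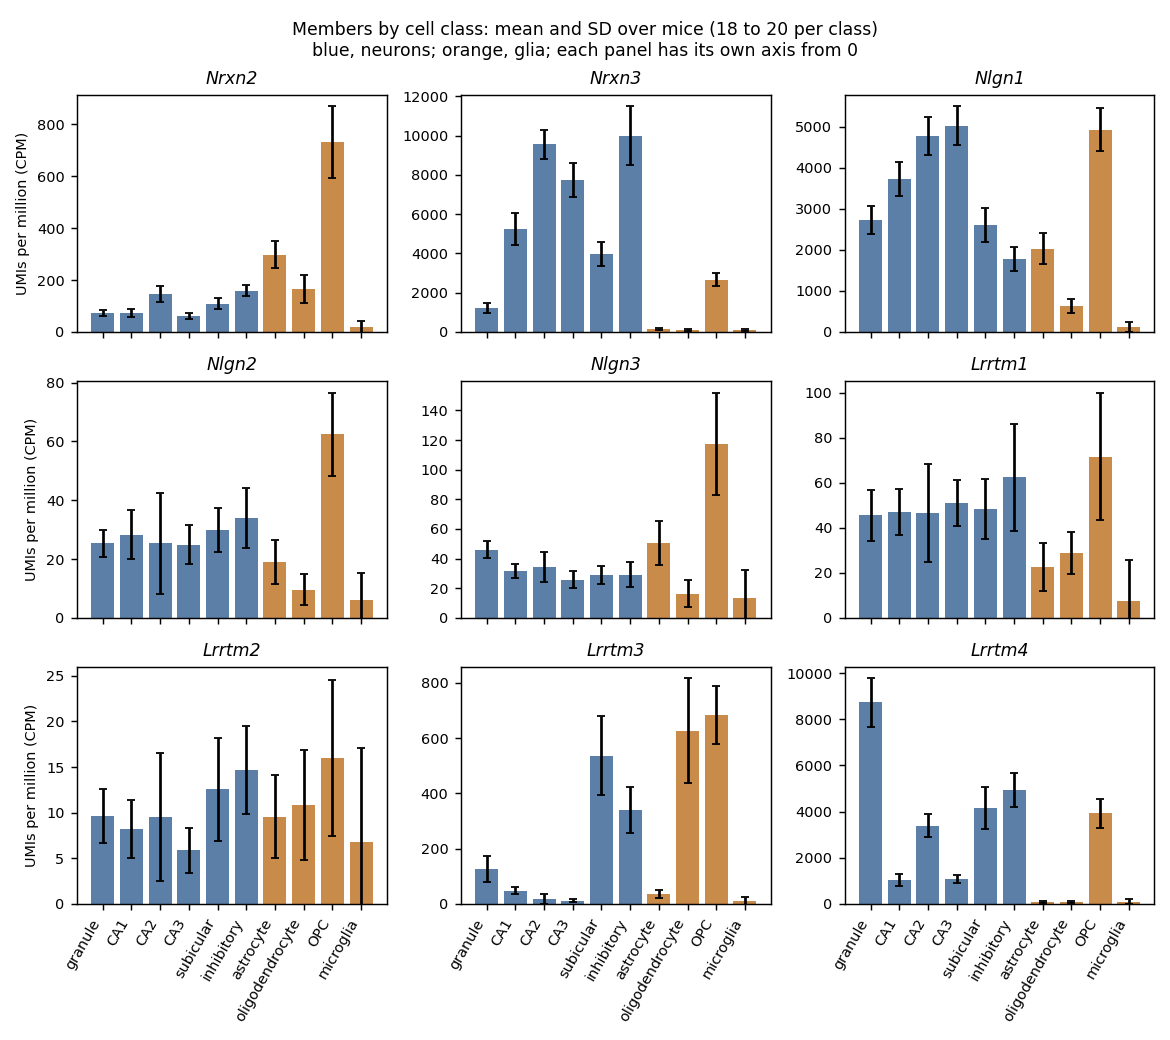
Level of each gene in 10 cell classes, as bars of mean CPM with SD over 18 to 20 mice, each panel on its own linear axis (neurons blue, glia orange). Lrrtm4 peaked in granule-like nuclei at 8724 CPM, Nrxn3 in inhibitory-like nuclei at 10000 CPM, and Nrxn2, Nlgn2 and Nlgn3 in OPC-like nuclei.

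Inhibitory-like nuclei were further split into a side marked by Lhx6 (1922 nuclei) and a side marked by Adarb2 (1990 nuclei). Nrxn2 was 126 ± 25.5 CPM on the Lhx6 side and 203 ± 29.8 on the Adarb2 side, lower on the Lhx6 side in 20 of 20 mice (adjusted permutation p = 4.5e-05 over the 9 genes). Nrxn3 was likewise lower on the Lhx6 side in all 20, at 10058 ± 1400 against 12950 ± 2303. Nlgn1 (1300 ± 304 against 1844 ± 296) and Lrrtm4 (4332 ± 723 against 5245 ± 1044) were also lower there. Lrrtm1 was higher on the Lhx6 side in 15 of 20 mice, 70.0 ± 27.7 against 55.2 ± 25.5 (adjusted permutation p = 0.00524). Lrrtm3, Nlgn2, Nlgn3 and Lrrtm2 did not pass the threshold.

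The pattern of Lrrtm3 over the classes was closest to that of its own host. Over the 10 classes, the gene whose mean log2(CPM + 1) followed it best among 11356 candidates was Ctnna3, with Pearson's r of 0.997, far ahead of Dnmt1 at 0.937 and Zfp60 at 0.931. These r are descriptions over 10 points that share mice and libraries. From class to class there were 0.377 to 0.516 Lrrtm3 UMIs per Ctnna3 UMI, leaving out the sparse microglia-like nuclei (19 and 30 UMIs). Between mice the ratio was not constant: in granule-like nuclei mouse 10 had 585 Lrrtm3 and 677 Ctnna3 UMIs, and mouse 20 had 312 and 1626. For Lrrtm1 and Ctnna2 r was 0.980, and for Lrrtm2 and Ctnna1 it was 0.244. The genes most like the other members were Sycp2 for Nrxn2 (r = 0.964), Mast1 for Nrxn3 (0.973), Acp1 for Nlgn1 (0.979), Nusap1 for Nlgn2 (0.976), 4930570G19Rik for Nlgn3 (0.964), Pcbp3 for Lrrtm1 (0.992), Zc3h7b for Lrrtm2 (0.954) and Dpp6 for Lrrtm4 (0.962).

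**Figure D2:**
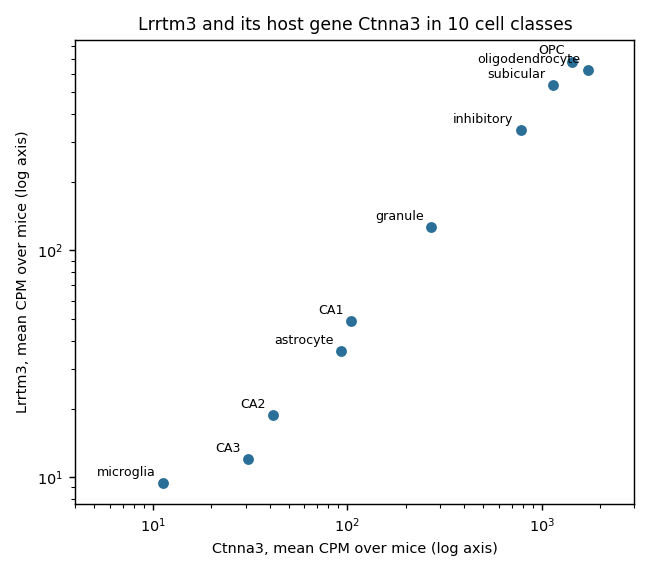
Mean CPM of Lrrtm3 against that of its host Ctnna3 in 10 cell classes, 1 point per class, both axes logarithmic. The classes lie along a line from microglia-like to OPC-like and oligodendrocyte-like nuclei (r = 0.997 over 10 classes).

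State was then compared within each class with edgeR's quasi-likelihood test on the sums per mouse, averaged over both genotypes, with Benjamini-Hochberg adjustment over all genes of the class and a threshold of 0.05. As a measure of state, 6 activity-regulated genes (Arc, Egr1, Fos, Junb, Npas4 and Nr4a1) were tested alongside. Of these, 0 were called higher in any class under either agent. In CA1-like nuclei 4 of 6 were lower under isoflurane (2.70% of all genes of the class), among them Arc by a log2 fold change of -2.53 (edgeR adjusted p = 0.000142), and 5 of 6 under ketamine (5.35%), Arc by -3.23 (adjusted p = 0.000624). In subicular-like nuclei 6 of 6 were lower under isoflurane (4.14%) and 5 of 6 under ketamine (3.61%). In inhibitory-like nuclei 3 of 5 (1.30%) and 1 of 5 (1.38%) were lower, and in CA3-like nuclei 3 of 6 (0.814%) and 0 of 6 (2.26%). In granule-like nuclei 0 of 6 passed under either agent (1.17% and 6.16% of all genes were lower). Counts there were low for Arc (0 to 27 UMIs per mouse) and Npas4 (0 to 18), and higher for Junb (11 to 111). Arc was 0 to 7.26 normalised CPM in Wake, 0.355 to 1.13 in isoflurane and 0 to 1.03 in ketamine mice, so the lack of a call does not show an absent response. Fos was lower under isoflurane in 4 of the 7 classes where it was tested. Under ketamine it was called in 0 of 7, with log2 fold changes from -0.24 to 1.89 that were positive in 6. CA2-like nuclei were too few to test. Of 81 pairs of gene and class, 74 passed the filter on low counts, which dropped Lrrtm2 in OPC-like nuclei and all but Nrxn3, Nlgn1 and Lrrtm4 in microglia-like nuclei.

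Under isoflurane, 1 of the 9 genes was lower, in 2 classes, and none was higher. Lrrtm3 fell in granule-like and inhibitory-like nuclei. These 2 calls are 2.70% of the 74 tests, against 4.68% of all gene and class tests (1.99% lower and 2.70% higher), a share near the background. That background, 4694 calls, was itself 2219 without mice 1 to 4, 2676 without mouse 10 and 8156 with the run of mouse numbers as a term.

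In granule-like nuclei, normalised Lrrtm3 of the 9 Wake mice ranged from 137 to 208 CPM with a median of 166. The 7 isoflurane mice had a lowest value of 75.1, a median of 79.4 and a highest of 165. Of the isoflurane mice 6 lay below every Wake mouse and mouse 11 lay within the Wake range. The log2 fold change was -0.85 ± 0.17 (SE; 95% interval -1.20 to -0.49; edgeR adjusted p = 0.0131), where 2.71% of 15204 genes were called in this class. Within the 4 runs of mouse numbers that hold both states, all isoflurane mice lay below all Wake mice, with log2 differences of -1.17, -0.20, -0.95 and -0.61. These are the mice that gave the call, seen by run. In the second run the only isoflurane mouse, mouse 11, had 165 CPM against a lowest Wake value of 166. The fourth run held 1 Wake mouse. Leaving out mouse 11 gave -1.02, and leaving out mice 1 to 4 gave -0.70, which no longer passed (adjusted p = 0.169).

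In inhibitory-like nuclei Lrrtm3 ranged from 346 to 545 CPM with a median of 432 in the Wake mice. Under isoflurane it ranged from 207 to 348 with a median of 274, and only mouse 11 reached the Wake range. The log2 fold change was -0.67 ± 0.13 (SE; 95% interval -0.94 to -0.41; edgeR adjusted p = 0.00506), where 2.49% of 11966 genes were called. All isoflurane mice lay below the Wake mice of their own run in 4 of 4 runs. The call held in all 8 other settings of the fit and with each mouse left out. On the Lhx6 side the median was 395 CPM in Wake and 315 in isoflurane mice, and on the Adarb2 side 437 and 248, values that were not tested. In subicular-like nuclei Lrrtm3 had a median of 615 CPM in Wake and 500 in isoflurane mice (log2 fold change -0.34 ± 0.15, edgeR adjusted p = 0.197), and in CA1-like nuclei 51.9 and 34.0 (-0.47 ± 0.20, adjusted p = 0.188). In OPC-like nuclei, where its level was high, the change was -0.01.

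Under ketamine Lrrtm3 was lower in granule-like and subicular-like nuclei, and Nlgn2, whose protein organises inhibitory synapses, was lower in CA1-like nuclei. No member was higher. These 3 calls are 4.05% of the 74 tests, against 6.52% over all genes and classes (3.12% lower and 3.40% higher), again near the background. The 6534 calls behind that share became 1069 without mouse 27, 2009 without mouse 25, 3238 without mouse 26, 4129 without mouse 28, 3716 without mouse 2 and 54 with the run as a term. The isoflurane and ketamine comparisons share their 9 Wake mice.

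In granule-like nuclei the 4 ketamine mice had 78.2, 94.0, 80.9 and 80.1 CPM of Lrrtm3, all below the lowest Wake mouse at 137. The log2 fold change was -1.07 ± 0.21 (SE; 95% interval -1.51 to -0.64; edgeR adjusted p = 0.00400), where 12.6% of genes were called. In subicular-like nuclei they had 384, 409, 340 and 365 CPM, all below the Wake mice, which ranged from 481 to 1035 with a median of 615. The change was -0.76 ± 0.18 (95% interval -1.15 to -0.38; edgeR adjusted p = 0.0164), where 6.92% of genes were called. In inhibitory-like nuclei the values were 297, 307, 334 and 259 CPM, again all below the lowest Wake mouse at 346, with a log2 fold change of -0.52 ± 0.15 that missed the threshold (edgeR adjusted p = 0.0661) and passed in 4 of 8 other settings: DESeq2 (adjusted p = 0.0353), no gene filter (edgeR, 0.0359), without mice 1 to 4 (0.0494) and adjusted over all classes (0.0469). It also passed in 2 of 20 fits with 1 mouse left out (mouse 3 or mouse 19), and with the run of mouse numbers as a term it was -0.56 (edgeR adjusted p = 0.709). In CA3-like nuclei, where Lrrtm3 was near the reference, the value pointed the other way (1.01 ± 0.33, edgeR adjusted p = 0.0761), on 6 to 37 UMIs per ketamine mouse.

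Nlgn2 in CA1-like nuclei was 18.3, 24.3, 19.6 and 20.7 CPM in the ketamine mice and 23.6 to 39.4 with a median of 34.1 in the Wake mice, and the ranges overlapped through ketamine mouse 26 and Wake mouse 19. The log2 fold change was -0.66 ± 0.21 (95% interval -1.09 to -0.23; edgeR adjusted p = 0.0475), where 9.92% of genes were called. In inhibitory-like nuclei Nlgn2 changed by a like amount without passing (-0.66 ± 0.23, edgeR adjusted p = 0.110). The CA1-like call rested on 21 to 63 UMIs per ketamine mouse and passed in only 7 of the 20 fits that left out 1 mouse. The subicular-like Lrrtm3 call was lost when any 1 of the 4 ketamine mice was left out (highest edgeR adjusted p = 0.106). All 4 ketamine mice belong to the last run of mouse numbers, whose only Wake mouse is mouse 29, so with the run as a term none of the 3 calls passed, while the changes stayed negative (-0.78, -0.80 and -0.82). Within that run mouse 29 lay above all 4 ketamine mice in each of these 3 cases.

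The remaining members had no call. Lrrtm1 in granule-like nuclei had a median of 38.5 CPM in Wake and 58.0 in ketamine mice (log2 fold change 0.56 ± 0.19, edgeR adjusted p = 0.0604). Lrrtm4 in granule-like nuclei, its main class, was 8656 ± 1290 in Wake, 8530 ± 1486 in isoflurane and 9512 ± 1083 in ketamine mice (n = 9, 7 and 4). Its change was -0.03 under isoflurane and 0.13 under ketamine, neither past the threshold. Nrxn3 in granule-like nuclei was 1243 ± 118, 1066 ± 299 and 1469 ± 330 CPM. Nrxn2 in OPC-like nuclei was 722 ± 109, 861 ± 182 and 780 ± 92.5 CPM, and Nlgn1 in CA1-like nuclei was 3894 ± 684, 3373 ± 527 and 4239 ± 149.

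**Figure D3:**
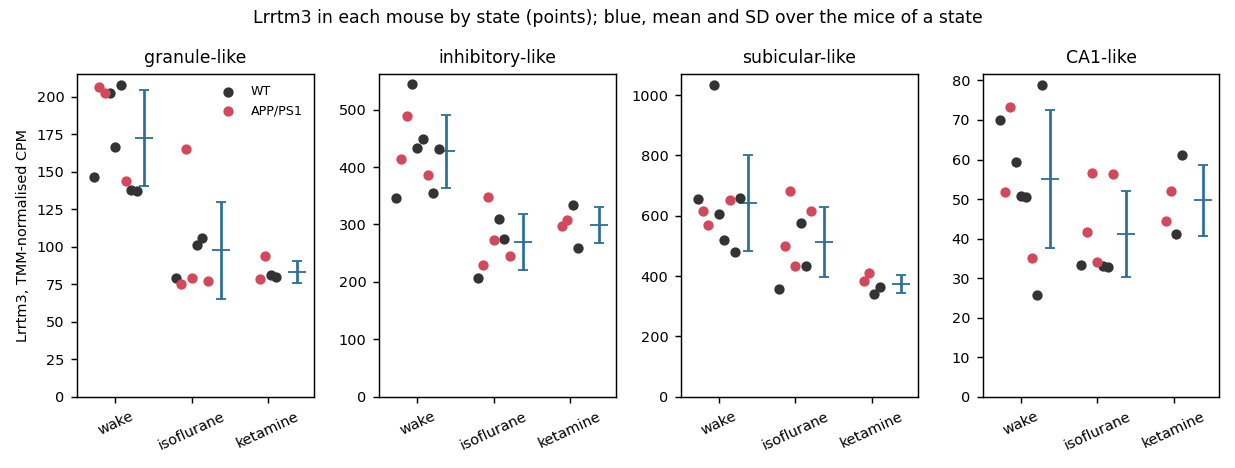
Normalised CPM of Lrrtm3 in each mouse (points, black WT and red APP/PS1) by state in 4 neuronal classes, with the mean and SD of each state in blue. In granule-like nuclei 6 of 7 isoflurane mice and 4 of 4 ketamine mice lie below every Wake mouse, while CA1-like values overlap.

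**Figure D4:**
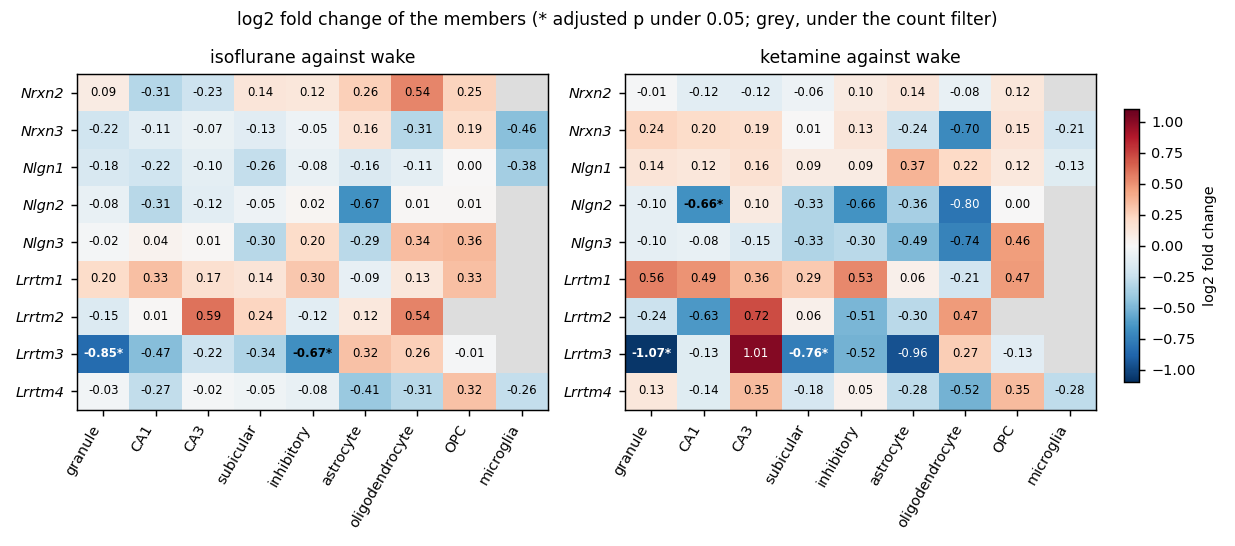
Fitted log2 fold change of each gene (rows) in each tested class (columns), isoflurane against Wake on the left and ketamine against Wake on the right. Asterisks mark the 2 and 3 calls at an adjusted p under 0.05, and grey cells did not pass the count filter.

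Levels of other cell types and of the host were set beside the Lrrtm3 calls. In granule-like nuclei all 10 subicular markers were detected, and their sum was 178 to 327 CPM in Wake mice (median 228), 108 to 508 in isoflurane mice (median 134) and 171 to 283 in ketamine mice (median 222). Mouse 11, the isoflurane mouse with Wake-like Lrrtm3, held the highest of these values. The other isoflurane mice had 108 to 145 CPM, all below the lowest Wake mouse at 178. The sum of all 10 oligodendrocyte markers was 427 to 1037 CPM (median 614) in Wake, 424 to 782 (567) in isoflurane and 404 to 562 (473) in ketamine mice. The 9 inhibitory markers with UMIs there in all 3 states summed to 1653 to 2050 CPM in Wake (median 1926), 1476 to 1982 in isoflurane (1626) and 1718 to 1974 in ketamine mice (1876). All 10 inhibitory markers summed to only 30.7 to 90.3 CPM in subicular-like and 36.2 to 92.3 in CA1-like nuclei of Wake mice. How much of the granule-like sum came from inhibitory nuclei was not tested. In inhibitory-like nuclei the subicular sum was 129 to 291 CPM in Wake mice (median 154), 104 to 383 in isoflurane mice (median 125) and 220 to 304 in ketamine mice (median 241). The oligodendrocyte sum was 178 to 540 CPM there (median 378), against 183 to 508 (267) and 89.7 to 439 (370). OPC markers in inhibitory-like nuclei were 312 to 432 CPM in Wake mice (median 385), 283 to 391 under isoflurane (346) and 283 to 304 under ketamine (294, with Cspg4 at 0), where all ketamine mice lay below all Wake mice. Granule markers there were 358 to 552 CPM (median 450), 365 to 464 (445) and 475 to 510 (487). In subicular-like nuclei the oligodendrocyte sum was 142 to 707 CPM in Wake (median 259) and 165 to 232 in ketamine mice (203), and the OPC sum was 98.9 to 182 (152) and 118 to 156 (153, with C1ql1 at 0). The sum of 9 granule markers was 192 to 285 CPM there in Wake (median 224) and 251 to 274 in ketamine mice (265). Their part in the result was not tested. Ctnna3 changed by -0.55 ± 0.22 in granule-like (edgeR adjusted p = 0.220) and by -0.37 ± 0.25 in inhibitory-like nuclei under isoflurane (adjusted p = 0.600), and by -0.44 ± 0.26 in granule-like and -0.14 ± 0.32 in subicular-like nuclei under ketamine, with no call. Seen by run of mouse numbers, Ctnna3 CPM had the same order as Lrrtm3. In granule-like and inhibitory-like nuclei all isoflurane mice lay below the Wake mice of their own run. Granule-like Ctnna3 was 261 and 267 in Wake and 150 and 136 in isoflurane mice of the first run. In the second run it was 223 to 318 in Wake mice and 220 in mouse 11. All ketamine mice lay below mouse 29 in granule-like (412), inhibitory-like (1300) and subicular-like nuclei (1631). The difference between the changes of the 2 genes was not tested.

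Genotype made no difference that passed the test. With APP/PS1 set against WT over all 3 states, 0 of the 74 tests on members were called (0% of the 100206 gene and class tests were called too), with 2 members at an unadjusted p under 0.05 and 0 called by DESeq2. Over all genes 2584 tests had an unadjusted p under 0.05, and DESeq2 called 0. Other fits called 27 (no gene filter), 4 (without mice 11, 14 and 17), 2 (run as a term) and 1 (without mouse 16), with 0 members among them. Lrrtm3 in granule-like nuclei was 166 ± 31.9 CPM in WT Wake (n = 6), 184 ± 35.2 in APP/PS1 Wake (n = 3), 95.4 ± 14.2 in WT isoflurane (n = 3), 99.2 ± 43.9 in APP/PS1 isoflurane (n = 4), 80.5 ± 0.608 in WT ketamine (n = 2) and 86.1 ± 11.2 in APP/PS1 ketamine mice (n = 2). Its difference between genotypes was 0.10 ± 0.16 (95% interval -0.23 to 0.43). The isoflurane effect on it was -0.80 ± 0.23 in WT and -0.89 ± 0.24 in APP/PS1 mice, and neither passed alone (edgeR adjusted p = 0.190 and 0.195). With DESeq2 the WT change passed (adjusted p = 0.0498), with the run as a term the APP/PS1 change passed (edgeR adjusted p = 0.0433), and without mouse 11 the APP/PS1 change was -1.25 and passed (edgeR adjusted p = 0.00718). Without mice 11, 14 and 17, whose Prnp goes against their labels, it was -1.40 (edgeR adjusted p = 0.00593) against -0.73 in WT mice (adjusted p = 0.0848). The difference of the effects was -0.09 (95% interval -0.78 to 0.60), an interval that leaves room for a sizeable difference either way. That difference was -0.45 without mouse 11 (unadjusted p = 0.0786, edgeR adjusted p = 0.966) and -0.68 without mice 11, 14 and 17 (unadjusted p = 0.00819, adjusted p = 0.788), and it passed in 0 of 8 other settings and 0 of 20 fits with 1 mouse left out. In inhibitory-like nuclei the effect was -0.69 ± 0.17 in WT and -0.65 ± 0.18 in APP/PS1 mice, with a difference of 0.04 (95% interval -0.48 to 0.56). Neither passed alone (edgeR adjusted p = 0.0956 and 0.196), while DESeq2 called the WT change (adjusted p = 0.0152) and the fit with the run as a term called both (edgeR adjusted p = 0.0424 and 0.0128). Over the 74 tests of the difference of isoflurane effects, 0 members were called (0% of all tests), 0 had an unadjusted p under 0.05 and 0 were called by DESeq2. Over all genes 3122 tests had an unadjusted p under 0.05, DESeq2 called 0, and 64 were called with no gene filter and 5 with the run as a term.

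The 9 genes act with other proteins of the synapse, and 67 such partner genes were counted alongside. They include other neurexin ligands, receptor phosphatases, latrophilins with their FLRT and teneurin ligands, and the scaffolds behind neuroligins and neurexins. Under isoflurane, 29 of 470 tests over the 9 classes were called lower, for 20 genes (6.17%, against 1.99% of all gene and class tests), and 4 were called higher, for 3 genes (0.851%, against 2.70%). In subicular-like nuclei 8 of 61 tested partners were lower and 0 higher (4.14% of all genes were lower), with a median log2 fold change of -0.23 against 0.00 for all genes. In granule-like nuclei 6 of 60 were lower (1.17% of all genes), with a median of -0.17 against 0.01, and in CA1-like nuclei 5 of 60 (2.70%), with -0.20 against 0.01. In oligodendrocyte-like nuclei 3 of 48 were higher (4.04% of all genes) and 1 was lower (2.81%), with a median of 0.01. In inhibitory-like nuclei 3 of 59 were lower (1.30%) and 1 was higher (1.19%). Astrocyte-like nuclei had 3 lower of 56 (2.76%), CA3-like 2 of 58 (0.814%) and OPC-like 1 of 52 (0.171%), and in microglia-like nuclei 0 of 16 were called (0.348% of all genes). Flrt2, a ligand of latrophilins, was lower in subicular-like (-0.96 ± 0.16, edgeR adjusted p = 0.00105), granule-like (-0.74) and inhibitory-like nuclei (-0.62). Apba2, a neurexin-linked adaptor of the Mint family, was lower in astrocyte-like (-0.79), CA1-like (-0.45) and granule-like nuclei (-0.32). Ptprd, a presynaptic receptor phosphatase, was lower in oligodendrocyte-like nuclei (-0.59 ± 0.11, edgeR adjusted p = 0.00163). The related phosphatase genes Ptprf (0.79) and Ptprs (0.89), and Lrrc4b (0.61), were higher in oligodendrocyte-like nuclei, and Ptprf also in inhibitory-like nuclei (0.64). The 33 calls became 13 without mice 1 to 4, and leaving out mouse 3, 4, 10 or 15 alone gave 20, 20, 17 and 21, while leaving out mouse 11 gave 50. Over all genes the 4694 calls became 2219 without mice 1 to 4. Leaving out mouse 3, 4, 10 or 15 alone gave 3509, 3370, 2676 and 3967, and leaving out mouse 11 gave 5486.

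Under ketamine 21 of the 470 partner tests were called lower, for 12 genes (4.47%, against 3.12% of all tests), and 5 higher, for 3 genes (1.06%, against 3.40%). In CA1-like nuclei 5 of 60 partners were lower (5.35% of all genes) and 1 was higher (4.58%). Astrocyte-like nuclei had 4 lower of 56 (2.81%), oligodendrocyte-like 3 of 48 (1.60%) and granule-like 3 of 60 (6.16%). Subicular-like nuclei had 3 lower of 61 (3.61%), CA3-like 2 of 58 (2.26%) and inhibitory-like 1 of 59 (1.38%). Astrocyte-, subicular-, CA3- and inhibitory-like nuclei had 1 higher each (5.11%, 3.31%, 2.16% and 1.75%). In OPC-like and microglia-like nuclei 0 of 52 and 0 of 16 were called (1.02% and 0.134%). Dlg4, which encodes the scaffold PSD-95 that binds neuroligins, was lower in subicular-like (-0.67 ± 0.12, edgeR adjusted p = 0.00267), CA3-like (-0.70), CA1-like (-0.51) and granule-like nuclei (-0.49). Lin7a, a scaffold that pairs with CASK, was lower in CA1-like (-1.19), granule-like (-0.87) and inhibitory-like nuclei (-0.75), and Apba1 in astrocyte-like nuclei (-1.03). Gphn, the scaffold gephyrin of inhibitory synapses that binds neuroligin 2, was higher in CA1-like (0.42), astrocyte-like (0.55) and CA3-like nuclei (0.40). Flrt1 was higher in subicular-like (0.54) and Apba2 in inhibitory-like nuclei (0.44). In CA1-like nuclei the calls of Nlgn2 and Gphn had opposite signs, and a link between them was not tested. The Nlgn2 call passed in only 7 of 20 fits with 1 mouse left out. With the run as a term no partner was called higher. The 26 ketamine calls became 15 without mouse 2, 8, 16, 6 and 14 without ketamine mice 25, 26, 27 and 28 in turn, and 2 with the run as a term. Over all genes the 6534 calls became 3716 without mouse 2 and 54 with the run as a term. Without ketamine mice 25, 26, 27 and 28 in turn they became 2009, 3238, 1069 and 4129. No partner was called between genotypes or for the difference of isoflurane effects by edgeR, nor by DESeq2. The paper names 2 of the partners, Lrrc4 and Lin7b, among its top genotype differences in CA1 excitatory neurons under isoflurane. Its test took nuclei as units (MAST), unlike the sums per mouse here. Between genotypes within isoflurane mice alone, edgeR called 0 of the 100206 gene and class tests.

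**Figure D5:**
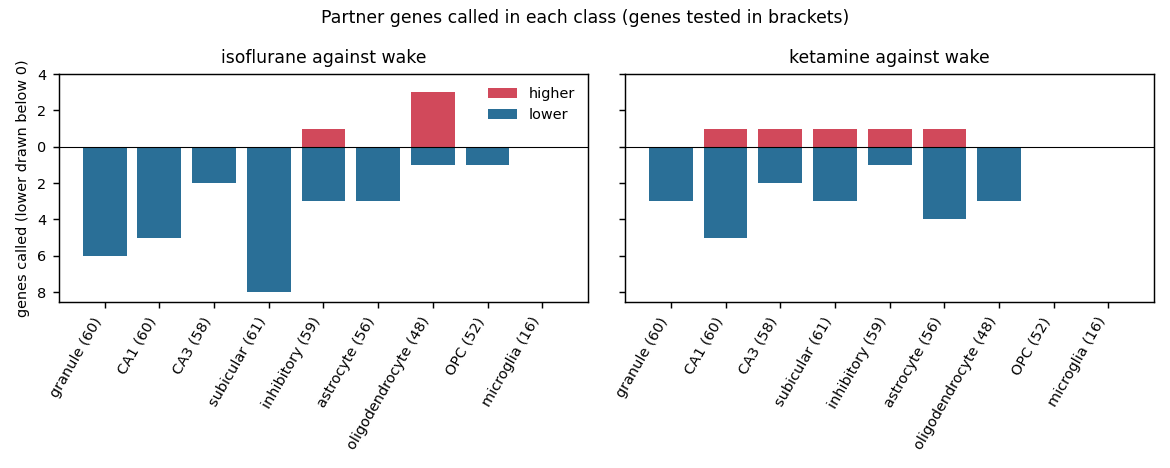
Number of partner genes called higher (red, above 0) and lower (blue, drawn below 0) in each class, with the number tested in brackets, for isoflurane and ketamine against Wake. Subicular-like nuclei had the most lower calls under isoflurane (8 of 61).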

How the data were processed

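Single-nucleus RNA-seq libraries (10x Genomics, 3 prime; the kit version differs between labels and methods) were made from the hippocampus of 20 mice. The authors deposited raw UMI counts per gene and nucleus from Cell Ranger 5.0.0 (mm10, introns included); the methods also name CellBender and DoubletFinder, and the file headers name Cell Ranger only. Nuclei were classed by the likelihood of their counts under profiles seeded with markers, on 3000 genes without the members, with a log-likelihood lead of at least 20, at least 1 own marker and no better fit of a mixture of 2 classes, which served as the doublet filter. Mixtures of any pair among the CA1, CA2, CA3, hilar mossy and subicular classes were not tried, so doublets of these were not filtered. This gate was set after marker counts had been seen. Counts were summed per mouse and class (at least 20 nuclei, which left mouse 12 out of the microglia-like class), and tested with edgeR 4.0.16 in R 4.3.3 (TMM, filterByExpr, 6 groups in 1 fit, Benjamini-Hochberg over all genes of a class). The class order used 100000 resamples and a pseudocount of 1 CPM. Python 3.11.15 and DESeq2 1.42.0 served for the rest. The tests were checked on simulated counts. Totals per class and mouse ran from 12976 to 6751706 UMIs, so low genes in glia are the least precise. Each mouse is 1 sample.

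The members, the partner list and the tests were chosen with earlier results of these data known. Named are the 9 members, their hosts, the 3 partners per comparison and direction with the smallest adjusted p, and the genes most like each member among those with at least 20 CPM in some class. Alternatives were DESeq2, no gene filter, only the groups compared, the run of mouse numbers as a term, mice 1 to 4 left out, a stricter gate (lead of 100, 2 markers), adjustment over all classes and each mouse left out, and for the class order a pseudocount of 10 CPM and TMM factors. The fit without mice 11, 14 and 17 was added after seeing the data.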

Additional observations from a re-analysis of the deposited data

Results flagged for a closer look

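Within groups of 4 to 10 mice, Dixon's test at the 95% level was applied to 78 sets of gene, class and group with at least 50 UMIs in every mouse. It marked 6 of them (7.69%), where chance marks about 1 in 20 (5%). Mouse 11 among the APP/PS1 isoflurane mice had 165 normalised CPM of Lrrtm3 in granule-like nuclei, against 75.1 to 79.4 in the other 3, and 1680 CPM of Nrxn3 there, against 838 to 975. It also held the highest subicular marker sum in granule-like nuclei (508 CPM), and the part of this in both values was not tested. Mouse 12 among the WT Wake mice had 1035 CPM of Lrrtm3 in subicular-like nuclei, against 481 to 658, and without it the ketamine change there was -0.67 (edgeR adjusted p = 0.0112). Mouse 1 had 2633 CPM of Nrxn3 in subicular-like nuclei, against 3937 to 4598 in the other WT Wake mice. Mouse 13 had 235 CPM of Nrxn2 in astrocyte-like nuclei, against 283 to 303. Mouse 4 had 28.3 CPM of Nlgn3 in CA1-like nuclei, against 32.0 to 32.6 in the other APP/PS1 isoflurane mice.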

How the results depend on the processing

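Mice could not be paired by number, since each has its own, and a blocked analysis was made with the run of consecutive mouse numbers as a term. The number of members called under isoflurane was 2 as reported, 2 to 3 under the other settings and 2 to 4 with 1 mouse left out (4 without mouse 3). Under ketamine it was 3, with 0 to 4 under the other settings (0 with the run of mouse numbers as a term) and 1 to 5 with 1 mouse left out (1 without any of mice 25 to 28, 5 without mouse 19 or 20). Partner calls under isoflurane were 33 (29 lower and 4 higher). They were 54 (45 and 9) with the run as a term, 13 (11 and 2) without mice 1 to 4, and 17 to 50 with 1 mouse left out (11 to 45 lower, 2 to 6 higher). Calls over all genes were 4694 as reported, 8156 with the run as a term and 2219 without mice 1 to 4. With 1 mouse left out they were 2676 to 5486. Partner calls under ketamine were 26 (21 lower and 5 higher). They were 2 (2 and 0) with the run as a term and 6 to 33 with 1 mouse left out (6 to 25 lower, 0 to 8 higher). Calls over all genes were 6534 as reported, 54 with the run as a term and 1069 to 7863 with 1 mouse left out. Higher partner calls under ketamine were 1 with no gene filter, 1 without mice 1 to 4 and 3 without mice 11, 14 and 17. Higher partner calls under isoflurane were 2 without those 3 mice. Genotype and interaction gave 0 member and 0 partner calls in each fit. Lrrtm3 in CA1-like nuclei under ketamine, never called, was -0.13 as reported, -0.69 with the run as a term, 0.0060 with the stricter gate and 0.018 without mouse 10, and with 1 mouse left out it was otherwise -0.30 to -0.01. Neighbouring class pairs that differed numbered 36 to 46 of 81.

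The ketamine change of Lrrtm3 in subicular-like nuclei was called in 16 of 20 fits with 1 mouse left out, and those of Lrrtm3 in granule-like and inhibitory-like nuclei under isoflurane in 20 of 20. Nlgn2 in CA1-like nuclei was not called with no gene filter (adjusted p = 0.0571), without mice 1 to 4 (0.0566), over all classes (0.0602) or without mice 11, 14 and 17 (0.0663). Causes were not tested. The genotype contrast uses all groups, so restricting it to the groups compared gave no alternative.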
